A study of Drosophila melanogaster with 52 samples.

Results

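The pair-rule genes were followed through the whole series as a set of 9 genes, *h*, *eve*, *run*, *ftz*, *odd*, *prd*, *slp1*, *slp2* and *opa*. They were picked by gene symbol and make up 9 of the 16680 genes listed in each of 52 RNA-seq libraries of *Drosophila melanogaster* embryos. The series asked how maternal chromatin factors set the start of zygotic transcription, and it holds 5 experiments, each with its own wild-type embryos and with 2 biological replicates per group. All embryos came from hand-selected pools collected at 0.5 to 1 h or 1 to 1.5 h, and in the *HIRA* and *H3.3* experiments also at 2.5 to 3 h, which gives 26 groups. In mislocalized dPCIF1 mutant embryos, a GFP knock-in of dPCIF1 (*CG11399*) was held on cytoplasmic lipid droplets by JabbaTrap, a GFP-binding transgene driven in the maternal germline. *HIRA* maternal mutants (M-Z+) and *H3.3* maternal mutants (M-Z+, lacking maternal *H3.3A* and *H3.3B*, from rare viable double mutant mothers) lacked the maternal product of CRISPR alleles and carried a zygotic copy. Overexpressing embryos carried maternally driven UASp transgenes for HIRA alone or for HIRA together with dPCIF1, and dPCIF1 S111A S115A embryos came from a knock-in that replaces a phosphorylated and a potentially phosphorylated serine of dPCIF1 by alanine. The wild type is described as *w1118*, and maternal GAL4 drivers or GFP tags were not part of its description, so driver, tag and transgene cannot be told apart in the experiments that used them.

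Pair-rule genes encode transcription factors that divide the early fly embryo into segments. Maternal and gap factors first switch them on in broad domains, which resolve into stripes with a periodicity of every other segment while the syncytial embryo becomes cellular. Early regulators of the set (*h*, *eve*, *run*, *ftz*, *odd*) act before and upon the later ones (*prd*, *slp1*, *slp2*), and *opa* encodes a zinc-finger factor that is expressed in a broad band and helps change the regulation between both phases. Their products in turn set the stripes of segment polarity genes such as *en* and *wg*. Whole-embryo RNA shows amounts and no stripes, and in such bulk samples fewer transcribing nuclei and less RNA per nucleus cannot be told apart.

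The 9 genes lie at 8 places in the dm6 genome (gene models of BDGP6.54, the same Release 6 assembly). On chromosome 2L lie *odd* (3604224 to 3606756, minus strand), *slp1* (3825675 to 3827099), *slp2* (3836840 to 3839185) and *prd* (12082995 to 12085827, minus strand). The neighbours *slp1* and *slp2* share the plus strand and are 9740 bases apart, whereas *eve* lies on 2R (9979319 to 9980795) and *h*, listed as *hry* in the annotation, on 3L (8675759 to 8679253). On 3R lie *opa* (4852813 to 4869979) and *ftz* (6864324 to 6866244), and *run* lies on X (20690670 to 20697321). Values are for the whole gene, all exons and UTRs of its transcripts together. The annotation gives *slp1* and *slp2* 1 exon each, and 6 of the 9 genes have at most 2 exons, which holds for 36.6% of 13986 protein-coding genes.

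Library totals over all genes were 15073552 to 31579940 counts, and the lowest count of a pair-rule gene in any library was 19, so none lay near the limit of detection. Levels are given as CPM, counts scaled to the library total after TMM normalization within an experiment, and levels of different genes are compared only as TPM, which also adjust for transcript length. A call, higher or lower, needed both an edgeR quasi-likelihood test that passed at 0.05 after Benjamini-Hochberg adjustment over all tested genes and an absolute log2 fold change above 1. *Hira* RNA measured 73.3 ± 0.407 CPM in *HIRA* mutants against 170.4 ± 7.26 in wild type at 0.5 to 1 h (mean ± SD, n = 2), but at 2.5 to 3 h the order was turned, with 19.4 ± 1.46 CPM in libraries labelled *HIRA* maternal mutant and 10.4 ± 0.576 CPM in wild type, so those libraries are named by their label. *His3.3A* and *His3.3B* were lower in *H3.3* mutants at every stage, *Hira* reached 1775 to 2346 CPM under overexpression, and *CG11399* reached 2629 and 2709 CPM under co-overexpression. Mutations that leave the RNA in place, as in mislocalized dPCIF1, are not checked by RNA level. Every group holds marker RNA of other tissues or ages at some level, and sums of such lists are given beside the results.

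Wild-type embryos gave the course against which all mutants are read. At 0.5 to 1 h, the mean levels of the 9 genes ran from 0.48 TPM (*slp2*, mislocalization experiment) to 8.62 TPM (*slp1*, S111A S115A experiment). All 9 were called higher at 2.5 to 3 h than at 1 to 1.5 h in the *HIRA* experiment (35.4% of all genes were) and in the *H3.3* experiment (30.3%), with log2 fold changes of 2.53 to 4.29 and 2.97 to 6.81. Per transcript length, *opa* was the most abundant at 2.5 to 3 h in the *HIRA* experiment (306 TPM) and *ftz* in the *H3.3* experiment (226 TPM), whereas *slp2* was the scarcest in both (32.5 and 22.4 TPM). The 2 wild types agreed closely for *h* (179 and 178 CPM), *slp1* (141 and 137) and *slp2* (53.9 and 53.1), and differed most for *eve* (181 and 126).

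Earlier stages differed far more between wild-type collections. At 1 to 1.5 h, all 9 genes had their highest wild-type level in the *HIRA* experiment. *eve*, which encodes a homeodomain repressor, measured 23.4 and 22.7 CPM there, against 2.702 and 3.12 in the mislocalization, 3.08 and 4.34 in the *H3.3*, 3.76 and 4.45 in the overexpression and 9.86 and 8.07 in the S111A S115A experiment. The highest group exceeded the lowest by 7.93-fold for *eve*, 7.07-fold for *prd*, 6.98-fold for *ftz* and 2.13-fold for *slp2*. Between the early stages, all 9 genes were called higher at 1 to 1.5 h in the *HIRA* experiment (8.99% of all genes were), but 4 in the mislocalization (14.0%), 4 in the overexpression (6.23%), 3 in the S111A S115A (6.57%) and 2 in the *H3.3* experiment (5.62%). The 2 called in the *H3.3* experiment were *slp1* and *slp2*, neighbouring genes for forkhead-domain factors. A list of 7 early zygotic genes that mark stage (*sisA*, *sc*, *nullo*, *slam*, *bnk*, *Sry-alpha* and *halo*) moved the same way, with a summed level at 1 to 1.5 h of 1207 to 1219 CPM in the wild type collected for *HIRA* and of 481 to 564 CPM in the other 4. Libraries also differed in the effective transcript length that RSEM used for TPM. Its median shortfall from full length was 199 to 231 bases in the mislocalization and *H3.3* experiments, and 98.5 to 98.7 bases in the others. Comparisons across experiments mix both kinds, and the part of this was not tested. The collection and the experiment cannot be told apart, and each mutant is therefore compared with its own wild type and then set beside the others.

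**Figure D1:**
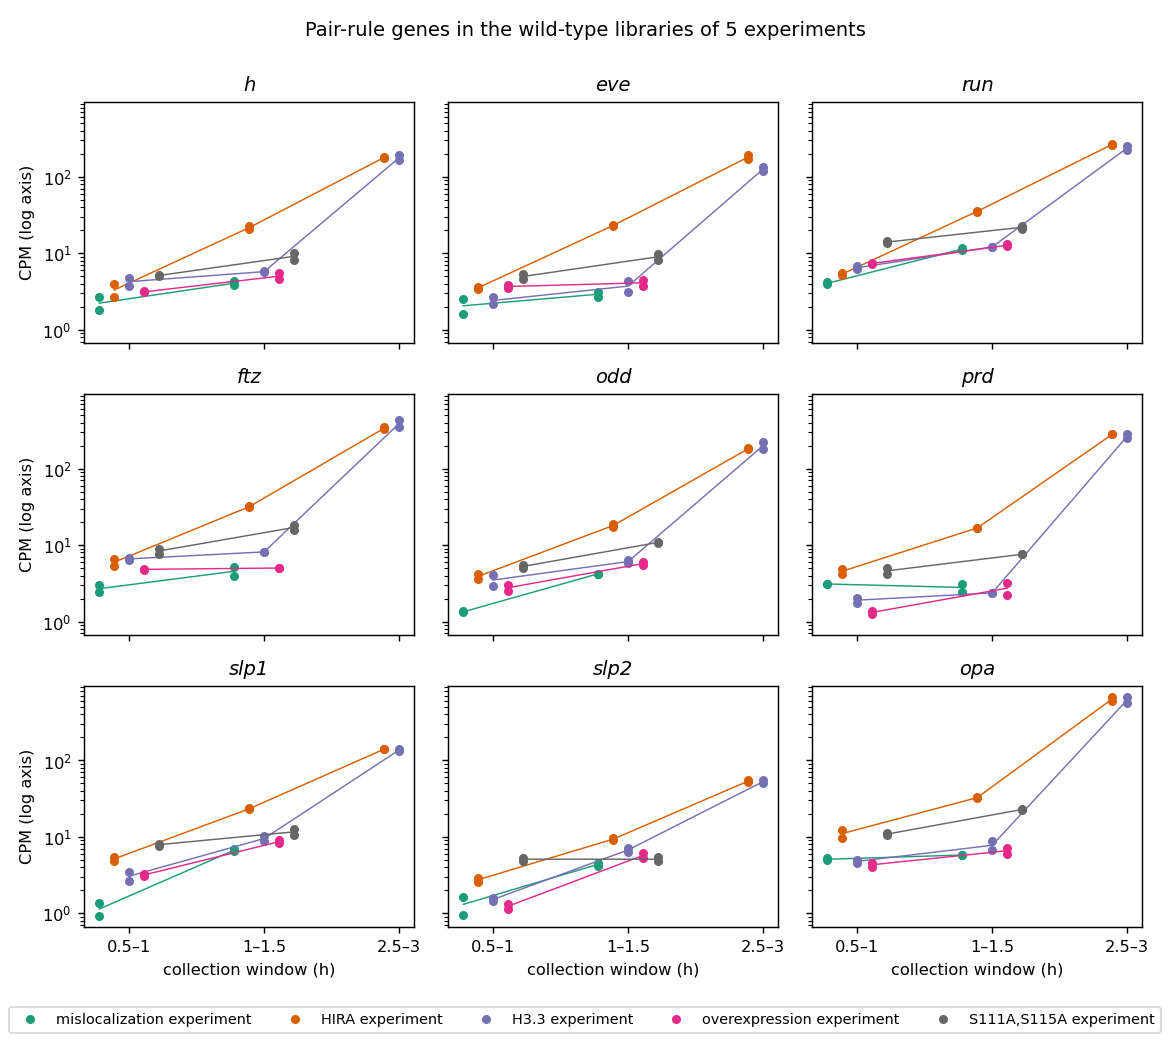
Level of each pair-rule gene (CPM, log axis) in every wild-type library by collection window (h). Points are libraries, 2 per group, coloured by experiment, and lines join group means. All 9 genes are highest at 2.5 to 3 h, and at 1 to 1.5 h the *HIRA* experiment lies above the other 4 for each gene, for example at 23.4 and 22.7 CPM for *eve*.

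Mislocalized dPCIF1 mutants showed the largest median increase of the set. By 1 to 1.5 h, all 9 pair-rule genes were called higher than in wild type, where 12.7% of the 8700 tested genes were, and their median log2 fold change was 3.23 against −0.01 over all genes. *ftz*, a homeodomain factor needed for the alternate segments, measured 3.95 and 5.14 CPM in wild type and 75.8 and 74.4 CPM in the mutants. The groups were far apart, with a log2 fold change of 4.05 ± 0.0879 (SE, edgeR adjusted p = 1.06e-16). *prd*, a paired-domain and homeodomain factor, went from 2.47 and 3.12 to 40.1 and 37.9 CPM (log2 fold change 3.81 ± 0.106, edgeR adjusted p = 2.56e-15). *opa* went from 5.88 and 5.74 to 78.0 and 73.4 CPM (3.70 ± 0.0859, edgeR adjusted p = 2.43e-16). Early and late members of the hierarchy thus moved together at this stage, and the smallest log2 changes were those of *slp2* (2.44), *run* (2.45) and *slp1* (2.75). Mutant and wild-type libraries did not overlap for any of the 9, and the share of all genes without overlap was not counted.

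The earlier stage, 0.5 to 1 h, separated the genes. There, 6 of the 9 were called higher (12.0% of all genes), namely *h*, *eve*, *run*, *ftz*, *odd* and *slp1*, with log2 fold changes of 1.27 to 2.10. *slp1* measured 0.920 and 1.36 CPM in wild type and 4.64 and 5.27 CPM in the mutants (2.10 ± 0.181, edgeR adjusted p = 1.62e-08). *odd*, a zinc-finger repressor, measured 1.36 and 1.32 against 5.31 and 5.01 CPM (1.94 ± 0.145, edgeR adjusted p = 2.60e-09). Without wild-type library 2, *eve* missed the fold threshold (0.98). Levels of *prd* (3.11 and 3.09 against 3.03 and 3.65 CPM), *slp2* (1.67 and 0.963 against 1.52 and 1.40) and *opa* (4.95 and 5.25 against 4.58 and 6.03) overlapped between the groups. Against this wild type, all 5 regulators of the early phase were thus among the 6. *prd* and *opa*, which rose most steeply with age in wild type of the *H3.3* experiment, were not.

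Other wild types changed the earlier result and not the later one. Wild type of the mislocalization experiment had the lowest level of all 5 at 0.5 to 1 h for the same 6 genes that were called there. It was not the lowest for *prd*, *slp2* and *opa*. Against the mean of the other 4 none of the 9 was called at 0.5 to 1 h (edgeR, 1 fit over all libraries; log2 fold changes −0.57 to 0.79, 8 of 9 at an unadjusted p under 0.05). In that comparison *slp1* stood at 0.21 and *prd* at 0.38. At 1 to 1.5 h, all 9 remained called, with log2 fold changes of 1.82 to 2.96, when 23.5% of all genes were called in either direction (10.2% at 0.5 to 1 h). The stage list rose as well, from 492 to 501 CPM in wild type to 2130 to 2206 CPM in mutants at 1 to 1.5 h, and from 375 to 384 to 621 to 641 CPM at 0.5 to 1 h. RNA of differentiated tissue (summed *elav*, *repo*, *Mhc*, *nSyb* and *Mlc2*) was 45.3 to 46.2 CPM in mutants at 0.5 to 1 h against 3.81 to 3.97 CPM in wild type. At 1 to 1.5 h it was 53.4 to 53.8 CPM in mutants and 51.2 to 55.4 CPM in wild type. The part of these differences in the pair-rule result was not tested.

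**Figure D2:**
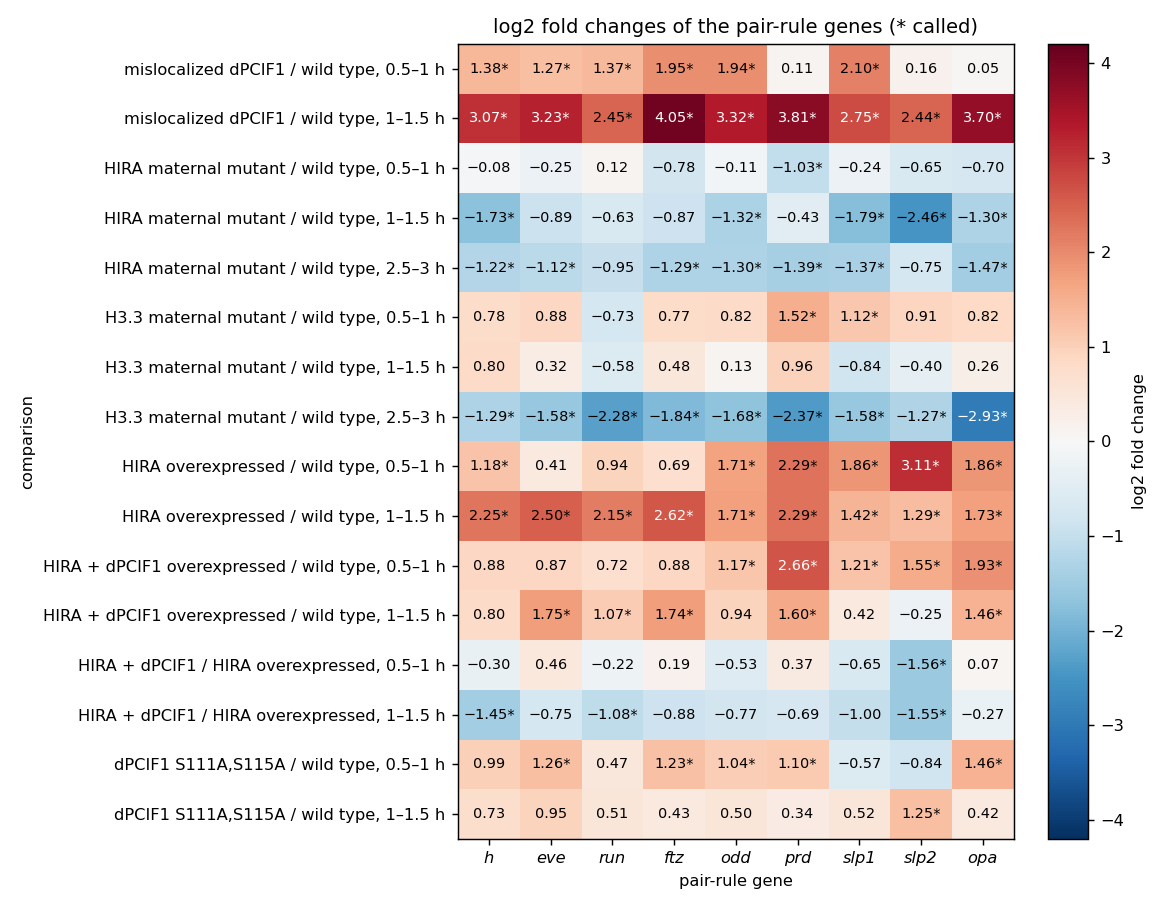
Fold changes of the 9 genes (columns) in 16 comparisons (rows) on the log2 scale, red for higher and blue for lower in the group named first, with an asterisk for a call (edgeR adjusted p under 0.05 and absolute log2 fold change above 1). All 9 genes are called higher in mislocalized dPCIF1 mutants and under HIRA overexpression at 1 to 1.5 h, and lower in *H3.3* mutants at 2.5 to 3 h.

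*HIRA* maternal mutants were compared at 3 stages. In the first, 0.5 to 1 h, *prd* alone was called, at 4.92 and 4.17 CPM in wild type and 2.44 and 2.12 CPM in the mutants (log2 fold change −1.03 ± 0.109, edgeR adjusted p = 3.56e-05), and 15.8% of the 10638 tested genes were called lower. Its call was lost without wild-type library 1 (−0.88) or mutant library 2 (−0.93), and against the other wild types (−0.20), where none of the 9 was called (edgeR; 3 of 9 at an unadjusted p under 0.05; 9.84% of all genes in either direction). Without mutant library 2, *slp2* was called lower instead (−1.02). RNA of differentiated tissue was 163 to 166 CPM in this wild type and 4.08 to 4.53 CPM in the mutants, with *repo* and *Mlc2* at 0 there. Eggshell RNA (summed *Yp1*, *Yp2*, *Yp3*, *Cp36*, *Cp38*, *Vm26Aa*, *Vm26Ab*) was 64.6 to 68.4 against 1.47 to 1.86 CPM, and the stage list 311 to 317 against 423 to 430 CPM. Their part in the result was not tested. By 1 to 1.5 h, 5 genes were called lower than in their own wild type, *h*, *odd*, *slp1*, *slp2* and *opa* (21.2% of all genes), and the median of the 9 was −1.30 against −0.11 over all genes. *slp2* measured 9.78 and 8.996 CPM in wild type and 1.69 in each mutant library, its lowest level in any group at this stage (log2 fold change −2.46 ± 0.126, edgeR adjusted p = 9.56e-08). *slp1* measured 23.0 and 23.8 against 7.36 and 6.29 CPM (−1.79 ± 0.0857, edgeR adjusted p = 6.13e-08). *h*, a bHLH repressor, measured 22.5 and 20.7 against 4.76 and 7.81 CPM (−1.73 ± 0.170, edgeR adjusted p = 1.42e-05). *eve*, *run*, *ftz* and *prd* had log2 fold changes of −0.43 to −0.89, which passed the test but not the fold threshold. For all 9 both mutant libraries lay below both wild-type libraries, and the share of all genes separated in this way was not counted.

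This difference depended on the wild type. The mutants' *eve* (13.1 and 11.9 CPM) lay below their own wild type and above every wild-type library of the other 4 experiments at that stage. Against the mean of those 4, *eve* (log2 fold change 1.45), *ftz* (1.19) and *prd* (1.84) were called higher, *h*, *odd*, *run* and *opa* had positive values of 0.16 to 0.68 and no call, and *slp2* alone was called lower (−1.71), with *slp1* at −0.44. Of 11184 genes tested there, 17.9% were called in either direction. *slp2* therefore held its direction and its call under both choices, and no other member did. The stage list summed to 776 to 789 CPM in the mutants, between the 1207 to 1219 CPM of their own wild type and the 481 to 564 CPM of the others. RNA of differentiated tissue was 162 to 163 CPM in the own wild type, led by *Mhc* at 104 CPM, and 1.80 to 3.14 CPM in the mutants, and its part in the result was not tested.

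**Figure D3:**
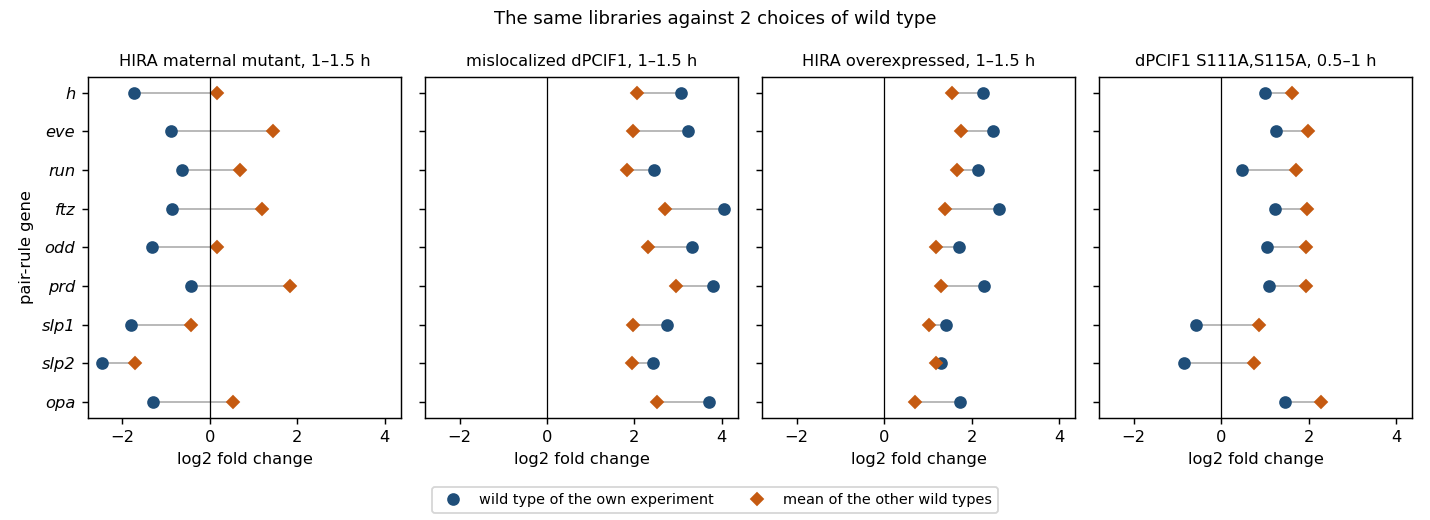
Log2 fold change of each gene against the wild type of its own experiment (circles) and against the mean of the other wild types of the same stage (diamonds) in 4 comparisons. For *HIRA* mutants at 1 to 1.5 h, 7 of the 9 genes lie on opposite sides of 0, for example *eve* at −0.89 and 1.45, whereas mislocalized dPCIF1 mutants and HIRA-overexpressing embryos stay above 0 for every gene.

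**Figure D4:**
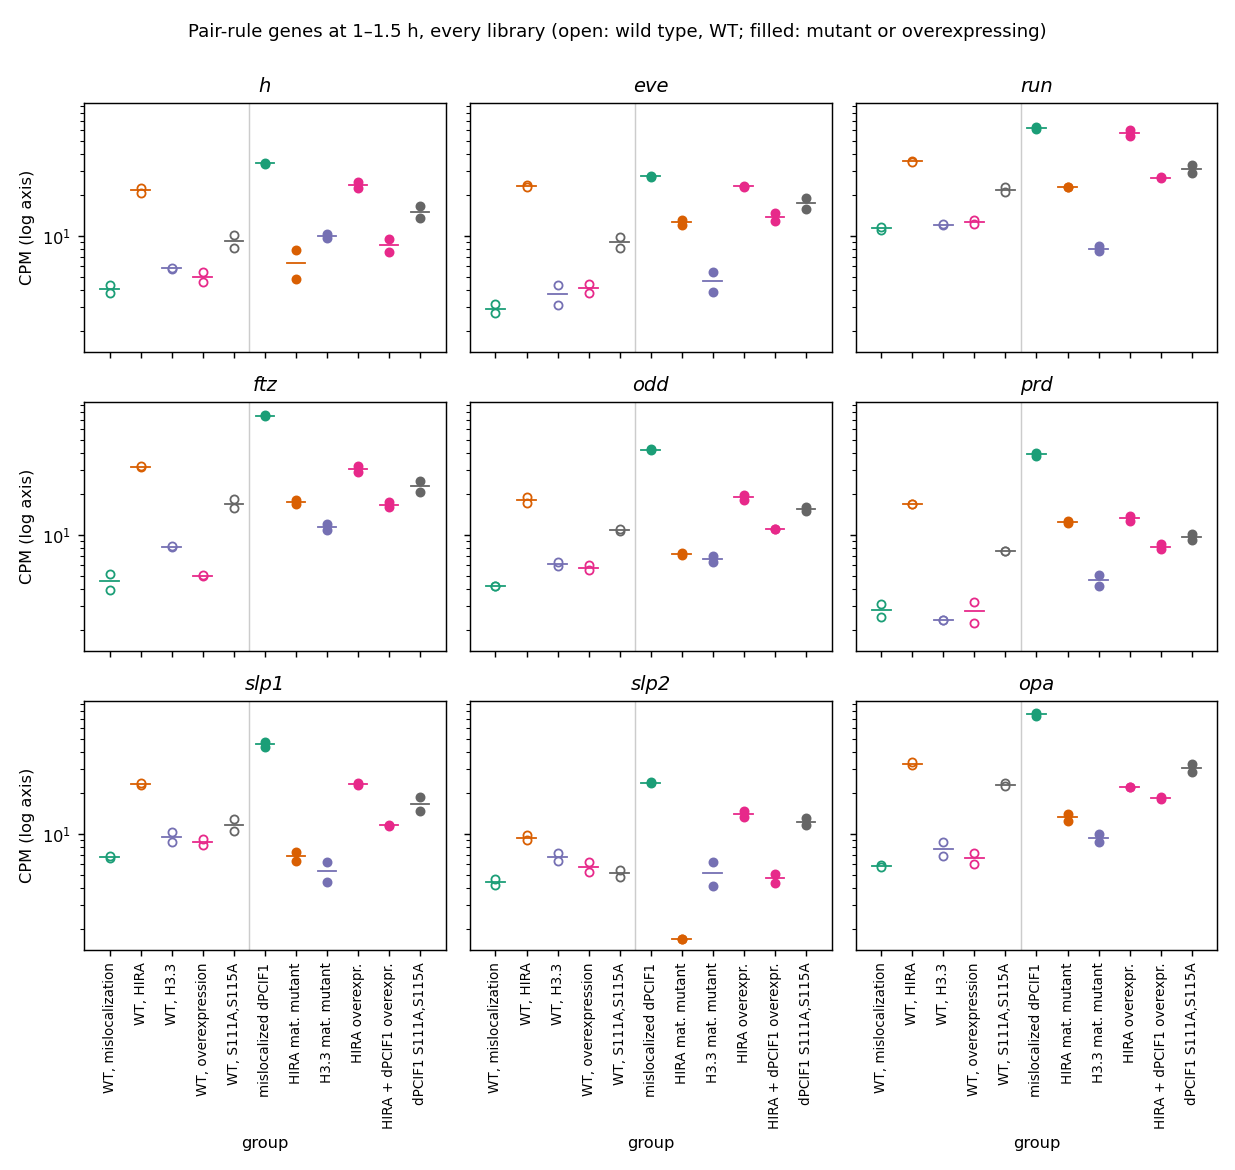
Level of each pair-rule gene (CPM, log axis) in every library at 1 to 1.5 h. Open points are the 5 wild-type groups, filled points the 6 mutant or overexpressing groups, 2 libraries each, and lines are means. Mislocalized dPCIF1 mutants lie above all wild types for every gene, and *slp2* is lowest in *HIRA* mutants at 1.69 CPM.

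At 2.5 to 3 h, 7 genes were called lower in the libraries labelled *HIRA* maternal mutant (27.7% of all genes were), and the median of the 9 was −1.29 against −0.28 over all genes. *opa* went from 608 and 674 CPM in wild type to 230 and 233 CPM (log2 fold change −1.47 ± 0.0852, edgeR adjusted p = 5.45e-08). *prd* went from 280 and 284 to 108 and 108 CPM (−1.39 ± 0.0552, edgeR adjusted p = 3.64e-09). *run*, a Runt-domain factor, measured 263 and 268 against 136 and 138 CPM (−0.95) and *slp2* measured 55.1 and 52.7 against 32.2 and 32.1 CPM (−0.75), and neither passed the fold threshold. The 9 values thus lay close together, between −0.75 and −1.47. No library of either group overlapped the other, and the share of all genes without overlap was not counted. The call of *eve* (−1.12) was lost when either mutant library 1 or wild-type library 2 was left out (−0.92 and −0.97) or with only the groups compared (−0.91), and *run* passed the fold threshold under DESeq2 (−1.055). The mutants still raised all 9 genes from 1 to 1.5 h to 2.5 to 3 h (27.9% of all genes), and their *slp2* level went from 1.69 to 32.2 CPM.

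Other RNA that changes with stage differed in the same libraries. A list of 5 maternal mRNAs (*bcd*, *nos*, *osk*, *CycB*, *smg*) summed to 5111 to 5162 CPM in the libraries labelled mutant and to 1383 to 1408 CPM in wild type. *nullo*, a gene of cellularization that is shut off soon after, stood at 9.30 CPM against 0.683 CPM. The differentiated-tissue list was lower in the libraries labelled mutant (107 to 126 CPM against 792 to 800 CPM). The mutant collections held embryos with arrested or delayed nuclear division according to the study, and the part of delay in the pair-rule levels was not tested. Against the *H3.3* experiment's wild type, 6 of the genes were called lower (log2 fold changes −0.52 to −1.42, 30.1% of all genes called in either direction).

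Set against their own wild type, *H3.3* maternal mutants showed no called reduction at the early stages and the lowest median of the set at 2.5 to 3 h. Embryos of 0.5 to 1 h had *prd* (2.03 and 1.77 against 6.06 and 4.83 CPM; log2 fold change 1.52 ± 0.166, edgeR adjusted p = 1.77e-06) and *slp1* (3.49 and 2.64 against 5.82 and 7.505 CPM, 1.12 ± 0.180, edgeR adjusted p = 0.00011) called higher, as were 6.21% of the 10644 tested genes. The call of *slp1* was lost without mutant or wild-type library 2 (0.92 in both cases), and *odd* (1.09) or *eve* (1.05) was called higher without wild-type library 1 or 2. Against the other wild types *ftz*, *h* and *odd* were called higher in place of *prd* (0.78) and *slp1* (0.87), when 13.4% of all genes were called in either direction. *run* alone was lower in the mutants, at 6.16 and 6.72 against 3.69 and 4.09 CPM, short of the fold threshold (−0.73). In embryos of 1 to 1.5 h, no member was called by edgeR or by DESeq2 (12.3% of all genes were called higher and 1.87% lower by edgeR). Against the other wild types *run* (−1.19) and *slp1* (−1.08) were called lower, a share near the 16.4% of all genes called in either direction. Leaving out mutant library 1 called *prd* higher (1.09), and leaving out mutant library 2 called *slp1* lower (−1.09). Of the 9, 6 had an unadjusted p under 0.05, with log2 fold changes of both signs between −0.84 for *slp1* and 0.96 for *prd*. Eggshell RNA was 464 to 520 CPM in these mutant libraries and 0.0709 to 0.208 CPM in wild type, and RNA of differentiated tissue was 133 to 145 against 33.1 to 33.5 CPM. Their part in the result was not tested.

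At 2.5 to 3 h, all 9 genes were called lower in *H3.3* mutants, where 17.7% of all genes were, with a median of −1.68 against −0.06 over all genes. *opa* measured 559 and 684 CPM in wild type and 80.3 and 82.3 CPM in the mutants, the largest reduction in the series (log2 fold change −2.93 ± 0.0884, edgeR adjusted p = 6.41e-14). *prd* went from 251 and 280 to 54.0 and 48.7 CPM (−2.37 ± 0.0794, edgeR adjusted p = 1.93e-13). *run* went from 224 and 252 to 49.8 and 48.4 CPM (−2.28 ± 0.0663, edgeR adjusted p = 4.54e-14). *h* (−1.29) and *slp2* (−1.27) changed least. Wild type raised *opa* by 6.32 and *prd* by 6.81 on the log2 scale between 1 to 1.5 h and 2.5 to 3 h, and mutants raised them by 3.12 and 3.47. All 9 genes were also called lower against wild type of the *HIRA* experiment, with log2 fold changes of −1.13 to −2.81 (35.5% of all genes were called in either direction). Leaving out either wild-type library, which differed from each other by a chi-square of 22.2 per degree of freedom over all genes, changed no call, whereas *h* (−0.98) and *slp2* (−0.96) missed the fold threshold with library totals in place of TMM.

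As in the *HIRA* experiment, maternal mRNAs stood higher in the mutants (6142 to 6251 against 1813 to 1985 CPM), and so did *nullo* (54.0 against 1.35 CPM) and *bnk* (369 against 164 CPM), which act in cellularization. The stage list as a whole was 3000 to 3003 against 3197 to 3381 CPM. The differentiated-tissue list was 905 to 919 against 353 to 406 CPM, with *Mhc* higher (599 against 39.4 CPM) and *elav* lower (97.8 against 322 CPM). Eggshell RNA was 48.2 to 48.7 against 2.87 to 4.34 CPM. The part of these differences was not tested.

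**Figure D5:**
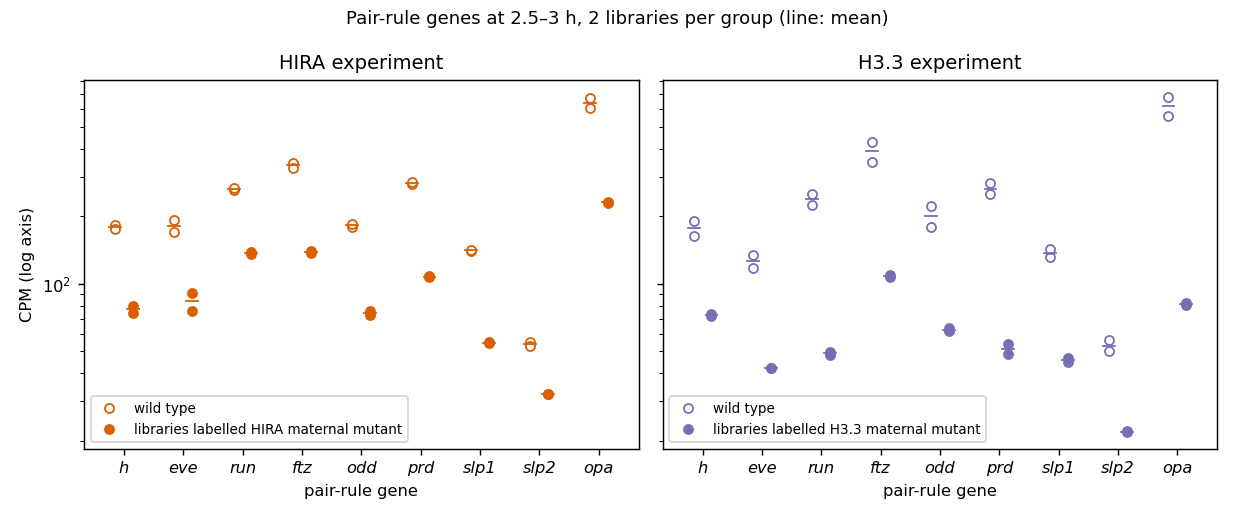
Level of the 9 genes (CPM, log axis) at 2.5 to 3 h in each library of the *HIRA* (left) and *H3.3* (right) experiments. Open points are wild type, filled points the libraries labelled mutant, and lines are means of 2 libraries. Every filled point lies below both open points of its gene, a separation that was not counted over all genes. The gap is widest for *opa* in the *H3.3* experiment (559 and 684 against 80.3 and 82.3 CPM).

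Maternal overexpression of HIRA raised the pair-rule genes in another order. First, at 0.5 to 1 h, 6 were called higher (9.66% of the 8974 tested genes), *h*, *odd*, *prd*, *slp1*, *slp2* and *opa*, and the median of the 9 was 1.71 against −0.02 over all genes. *slp2* measured 1.15 and 1.33 CPM in wild type and 10.98 and 10.6 CPM with HIRA (log2 fold change 3.11 ± 0.167, edgeR adjusted p = 1.49e-11). *prd* measured 1.38 and 1.26 against 6.10 and 6.75 CPM (2.29 ± 0.187, edgeR adjusted p = 7.38e-09). *eve* was at 3.48 and 3.85 against 4.72 and 5.08 CPM, a log2 fold change of 0.41 that stayed below the fold threshold, as did *ftz* (0.69) and *run* (0.94). Then, at 1 to 1.5 h, all 9 were called higher (17.3% of all genes), and now *ftz* (4.97 and 5.06 against 32.3 and 29.0 CPM; 2.62 ± 0.0936, edgeR adjusted p = 1.13e-14) and *eve* (3.76 and 4.45 against 23.1 and 23.0 CPM; 2.50 ± 0.107, edgeR adjusted p = 1.51e-13) changed most. *slp2* (1.29) and *slp1* (1.42) changed least. The wild type collected for *HIRA* had comparable levels at that stage for *eve* (23.1 CPM), *ftz* (31.7 CPM), *h* (21.6 CPM) and *slp1* (23.4 CPM), and 8 of the 9 genes were called higher than the mean of the other wild types, all but *opa* (0.72; 25.7% of all genes called in either direction). At the earlier stage that choice ended the calls of *h* (0.99) and *prd* (0.93) and added *run* (1.08), with 14.6% of all genes called in either direction. *slp2* still changed most (2.22). Wild type of this experiment had the lowest level of the wild types at 0.5 to 1 h for *prd*, *slp2* and *opa*. At 0.5 to 1 h, eggshell RNA was 42.1 to 42.9 CPM with HIRA and 5.73 to 6.29 CPM in wild type, and at 1 to 1.5 h RNA of differentiated tissue was 104 to 107 against 30.6 to 31.9 CPM. Their part in the result was not tested.

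HIRA together with dPCIF1 gave increases in fewer of the genes. Called higher than wild type at 0.5 to 1 h were 5 genes (6.95% of all genes), *odd*, *prd*, *slp1*, *slp2* and *opa*, with *prd* at 8.84 and 7.80 CPM (log2 fold change 2.66 ± 0.170, edgeR adjusted p = 2.83e-10) and *opa* at 16.4 and 16.5 CPM (1.93 ± 0.0996, edgeR adjusted p = 1.15e-11). Against the other wild types *slp2* lost its call (0.68) and *eve* gained one (1.15), with 9.99% of all genes called in either direction. By 1 to 1.5 h, 5 genes were called (4.96% of all genes), *eve*, *run*, *ftz*, *prd* and *opa*, while *slp2* stood at 5.10 and 4.36 CPM against 5.24 and 6.22 CPM in wild type (−0.25) and *odd* was called too without wild-type library 1 (1.01). Set directly against HIRA alone, *slp2* alone was called lower at 0.5 to 1 h (10.98 and 10.6 against 4.02 and 3.33 CPM, −1.56 ± 0.133, edgeR adjusted p = 3.52e-08), when 5.48% of all genes were. Uncalled values there had both signs. *eve* (0.46), *prd* (0.37), *ftz* (0.19) and *opa* (0.07) were higher with both proteins, and *h* (−0.30), *run* (−0.22), *odd* (−0.53) and *slp1* (−0.65) lower. At 1 to 1.5 h, when 17.0% of all genes were called lower, *h* (24.7 and 22.6 against 9.504 and 7.62 CPM; −1.45 ± 0.104, edgeR adjusted p = 4.05e-10), *run* (54.1 and 59.6 against 26.7 and 26.9 CPM; −1.08 ± 0.0588, edgeR adjusted p = 7.85e-12) and *slp2* (13.3 and 14.8 against 5.10 and 4.36 CPM; −1.55 ± 0.126, edgeR adjusted p = 2.67e-09) were called lower. The other 6 had negative values of −0.27 for *opa* to −0.999 for *slp1*, each with an edgeR adjusted p under 0.05, and *slp1* passed the fold threshold under DESeq2 (−1.04) and without library 1 of either group (−1.02 and −1.002). The stage list at 1 to 1.5 h was 1346 to 1349 CPM with HIRA, 818 to 829 CPM with both proteins and 481 to 490 CPM in wild type. In the same 3 groups eggshell RNA was 3.42 to 3.43, 40.0 to 40.3 and 0.403 to 0.556 CPM, and RNA of differentiated tissue 104 to 107, 10.8 and 30.6 to 31.9 CPM. Their part was not tested. Against the other wild types, *eve* was the single call left at 1 to 1.5 h for both proteins together (1.02; 12.4% of all genes called in either direction).

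In dPCIF1 S111A S115A mutants *slp1* and *slp2* moved apart from the other members. Of the 9, 5 were called higher at 0.5 to 1 h (4.37% of the 8746 tested genes), *eve*, *ftz*, *odd*, *prd* and *opa*. *opa* measured 11.2 and 10.5 CPM in wild type and 31.8 and 28.2 CPM in the mutants (log2 fold change 1.46 ± 0.0957, edgeR adjusted p = 9.39e-08). *eve* measured 5.28 and 4.63 against 12.0 and 11.7 CPM (1.26 ± 0.142, edgeR adjusted p = 1.64e-05). In the same libraries *slp1* (8.19 and 7.68 against 5.21 and 5.45 CPM; −0.57) and *slp2* (5.33 and 4.91 against 3.13 and 2.61 CPM; −0.84) were lower in both mutant libraries and stayed within the fold threshold. *h* (0.99) missed the fold threshold narrowly and passed it with TMM over all libraries, while *odd* (1.04) and *prd* (1.10) missed it without wild-type library 1 (0.98 each), *odd* also without mutant library 2 (0.98) and *prd* also without mutant library 1 (0.89). *h* was called without wild-type library 1 (1.03) or mutant library 2 (1.14). By 1 to 1.5 h, *slp2* alone was called higher, at 4.82 and 5.41 against 11.5 and 13.0 CPM (1.25 ± 0.140, edgeR adjusted p = 8.88e-06; 9.24% of all genes), and the other 8 had values of 0.34 to 0.95. Without wild-type or mutant library 1, *eve* was called too (1.06 and 1.05). Wild type of this experiment had the highest level of all wild types at 0.5 to 1 h for 8 genes (7 with TMM over all libraries), and against the mean of the other 4 wild types 7 genes were called higher at 0.5 to 1 h (log2 fold changes 0.76 to 2.29) and 6 at 1 to 1.5 h, without *slp2* (0.89), when 11.7% and 11.2% of all genes were called in either direction. *slp1* (0.88) and *slp2* (0.76) had positive values at 0.5 to 1 h in that comparison. The stage list summed to 931 to 968 CPM in mutants and 420 to 433 CPM in wild type at 0.5 to 1 h, with 828 to 948 CPM in mutants at 1 to 1.5 h, and eggshell RNA was 126 to 129 CPM in wild type and 1.61 to 2.35 CPM in mutants at 1 to 1.5 h. Their part in the result was not tested.

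The stage comparisons within each genotype gave a further view of the same genes. From 0.5 to 1 h to 1 to 1.5 h, all 9 were called higher in mislocalized dPCIF1 mutants (13.2% of all genes were), 6 in *HIRA* mutants (2.06%) and 6 under HIRA overexpression (13.4%). With both proteins 2 were called (*eve* and *run*, 1.88%), in S111A S115A mutants 2 (*slp1* and *slp2*, 11.5%) and in *H3.3* mutants *run* alone (13.4%). From 1 to 1.5 h to 2.5 to 3 h all 9 were called in *H3.3* mutants (28.8%) as in *HIRA* mutants.

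Whether a genotype difference changed with stage was tested by the interaction term of the same fits, with the wild type of the own experiment. The interaction term was not set against the other wild types. In mislocalized dPCIF1 mutants the log2 difference rose with stage for 8 genes, all but *slp1* (5.40% of all genes were called in that direction). In *HIRA* mutants it fell between the early stages for *h*, *odd*, *slp1* and *slp2* (7.12%). Against the other wild types, *h* stood at −0.28 and then 0.17, and *odd* at 0.25 and then 0.16. There *slp1* went from 0.44 to −0.44 and *slp2* from −0.19 to −1.71. By 2.5 to 3 h the difference from the own wild type came closer to 0 for *slp2*, from −2.46 to −0.75 (14.0%). In *H3.3* mutants it fell first for *slp1* and *slp2* (2.61%) and later for the other 7 (16.3%), so that each of the 9 genes was called once. Under HIRA overexpression it rose for *eve*, *ftz*, *h* and *run* (7.56%) and fell for *slp2* (6.94%), and with both proteins it fell for *prd* and *slp2* (4.65%). In S111A S115A mutants it changed sign for *slp1* (−0.57 to 0.52) and *slp2* (−0.84 to 1.25, 4.88%) and fell for *opa* (2.96%). Against the other wild types *slp1* (0.88 and then 0.58) and *slp2* (0.76 and 0.89) kept a positive sign, and *opa* stood at 2.29 and 1.55. With the own wild types, *slp2* was thus called in 7 of the 8 contrasts, some of which share groups. The number of contrasts per gene was not counted over all genes.

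Within the set, the levels of the 9 genes ran together over the 26 groups. The correlation of a gene's mean log2 CPM with the mean profile of the other 8 ran from 0.91 for *slp2* to 0.99 for *odd*. These values describe groups that share wild types and stages, and the closest pair was *h* and *odd* (0.99) and the least close *eve* and *slp2* (0.86). In 16 genotype comparisons, *prd* was called 10 times (7 higher, 3 lower) and *run* 6 times (4 higher, 2 lower). These comparisons share wild types and overexpressing groups, and calls per gene were not counted over all genes. Against the other wild types, both genes lost calls in some comparisons and gained them in others. The profile most like the mean of the set among 8132 other genes belonged to *spo*, a cytochrome P450 of ecdysone synthesis, followed by *KP78b*, *CG12581*, *KP78a* and *byn*, a T-box factor of the hindgut, all with a correlation of 0.99.

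The genes upstream and downstream of the set were counted from fixed lists, which were not set against the other wild types. Of 6 gap genes (*hb*, *Kr*, *kni*, *gt*, *tll*, *hkb*), 5 were called higher in mislocalized dPCIF1 mutants at both stages (medians 2.19 and 3.10, against 12.0% and 12.7% of all genes) and 5 under HIRA overexpression at 1 to 1.5 h (2.14, against 17.3%). Of 8 segment polarity genes (*en*, *inv*, *wg*, *hh*, *gsb*, *gsb-n*, *ptc*, *mid*), all 8 were called lower in *HIRA* mutants at 1 to 1.5 h (median −3.55, against 21.2% of all genes). The wild type of that comparison had the highest stage-list sum of the wild types at that stage (1207 to 1219 CPM). It also held differentiated-tissue RNA at 162 to 163 CPM, against 1.80 to 3.14 CPM in the mutants, and the part of both was not tested. In *H3.3* mutants at 2.5 to 3 h all 8 segment polarity genes were called lower as well (−1.95, against 17.7%). Under HIRA overexpression all 8 were called higher at 0.5 to 1 h (median 3.10, against 9.66% of all genes), where *slp2* was the member with the largest change, and in S111A S115A mutants 4 were called lower at 0.5 to 1 h (−0.98, against 2.08%), where *slp1* and *slp2* were the members below 0 against their own wild type and above 0 against the other wild types. Over the 16 genotype comparisons, which share wild types and overexpressing groups, *slp2* lay on the same side of 0 as the median of the segment polarity list in 16 and *slp1* in 15, against 12 or 13 for the other 7 genes. With the gap list, *slp1* lay on the same side in 14 and *slp2* in 13, and the other 7 in 13 to 15.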

How the data were processed

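Embryo RNA was depleted of rRNA and sequenced in strand-specific libraries, 2 biological replicates for each of 26 groups. Trimmomatic 0.39, STAR 2.7.10a on dm6 and RSEM 1.3.1 were run by the authors, who deposited expected counts per gene without normalization between libraries. The deposited TPM, which the authors' RSEM run made, are used only to compare levels between genes. Expected counts were rounded, genes were filtered with filterByExpr (minimum count 10, minimum total 15), and each of the 5 experiments was fitted in 1 model with TMM and the quasi-likelihood test of edgeR 4.0.16 (R 4.3.3), Benjamini-Hochberg over all tested genes. The authors' thresholds were kept. SE is the absolute log2 fold change over the root of F. For genes with few reads this SE can lie below the error from counting alone. One such case is *prd* in *HIRA* mutants at 0.5 to 1 h (34 and 52 reads, SE 0.109). Nor need the SE match the p-value: *run* in the same comparison had 0.12 ± 0.072 with an unadjusted edgeR p of 0.305. The SE is therefore not a full error of the fold change. The pair-rule genes, the lists and the tests were chosen with earlier results of these data known. All 9 genes are named in every comparison; other genes are named as lists, and the 5 most like profiles by correlation over groups (at least 5 CPM in a group). Alternatives were library totals, TMM over all 52 libraries, DESeq2 1.42.0, no filter, only the groups compared, a replicate block and leaving out each library; comparison with the mean of the other wild types of a stage was added after seeing the data. The script was tested on simulated data. With 2 libraries per group, p-values rest on a spread between replicate pools that was estimated over all groups of an experiment. The estimate also borrows from other genes. It does not cover the spread between collections, which reached 7.93-fold for *eve* among wild types at 1 to 1.5 h. Promoter and protein sequences were not used here. Gene positions come from BDGP6.54.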

Additional observations from a re-analysis of the deposited data

Results flagged for a closer look

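The genotype difference of 32 gene and stage pairs differed between stages by a test of the difference itself (edgeR's interaction term, adjusted p under 0.05 and an absolute value above 1), in all 8 such contrasts. Values are log2 differences, the later stage minus the earlier one, and none was weighed further. All rest on the wild type of the own experiment, and the interaction term was not set against the other wild types.

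In mislocalized dPCIF1 mutants the increase was larger at 1 to 1.5 h than at 0.5 to 1 h for *prd* (3.70), *opa* (3.65), *slp2* (2.27), *ftz* (2.10), *eve* (1.96), *h* (1.68), *odd* (1.38) and *run* (1.07), which is 8 of 9 where 5.40% of all genes were called higher. In *HIRA* mutants the difference fell between the same stages for *slp2* (−1.81), *h* (−1.65), *slp1* (−1.55) and *odd* (−1.21; 7.12% of all genes), and came closer to 0 from 1 to 1.5 h to 2.5 to 3 h for *slp2* (1.72; 14.0%). In *H3.3* mutants it fell between the early stages for *slp1* (−1.96) and *slp2* (−1.31; 2.61%), and from 1 to 1.5 h to 2.5 to 3 h for the other 7 genes, *prd* (−3.33), *opa* (−3.19), *ftz* (−2.33), *h* (−2.09), *eve* (−1.90), *odd* (−1.81) and *run* (−1.69; 16.3%).

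Under HIRA overexpression the difference grew for *eve* (2.09), *ftz* (1.93), *run* (1.22) and *h* (1.07; 7.56%) and shrank for *slp2* (−1.81; 6.94%). With both proteins it fell for *slp2* (−1.80) and *prd* (−1.06; 4.65%). In dPCIF1 S111A S115A mutants it turned from negative to positive for *slp2* (2.09) and *slp1* (1.09, 4.88%) and shrank for *opa* (−1.04, 2.96%). Against the other wild types *slp1* and *slp2* were positive at both stages. With the own wild types, *slp2* was thus called in 7 of the 8 contrasts, more than any other member. The number of contrasts per gene was not counted over all genes, and some contrasts share groups. Both overexpression contrasts share a wild type with the lowest *slp2* level of the wild types at 0.5 to 1 h (1.24 CPM). Wild type of the S111A S115A experiment had the highest (5.12 CPM). Among these calls, *run* in mislocalized dPCIF1 mutants (0.99 with library totals), *h* under HIRA overexpression, *prd* with both proteins, and *slp1* and *opa* in S111A S115A mutants fell short of the fold threshold under 1 alternative or more.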

How the results depend on the processing

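Of 74 calls in the 16 genotype comparisons, 74 held with DESeq2, with TMM over all 52 libraries, without a filter and with a replicate block, 73 with only the groups compared, and 72 with library totals. Against the other wild types, which could be set up for 70 of them, 47 held, 20 missed the threshold and 3 changed sign. Leaving out 1 library reversed no called value and ended 11 of 296 repeated calls. Replicate numbers do not pair the samples (residual correlations of same-numbered libraries −0.164 to 0.182), and the replicate block left, for example, all 9 calls in *H3.3* mutants at 2.5 to 3 h and changed no call of a pair-rule gene.

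Against the other wild types, counts of called genes stayed within 1.5 times and kept their direction in 8 of 14 comparisons. The remaining counts were 0 for mislocalized dPCIF1 at 0.5 to 1 h and 0 for *HIRA* mutants at 0.5 to 1 h. At 1 to 1.5 h they were 4 (3 of them higher) for *HIRA* mutants, 2 for *H3.3* mutants, 1 for both proteins and 6 for S111A S115A. Under the other alternatives, counts moved by more than 1.5 times in few cases. From 0.5 to 1 h to 1 to 1.5 h, they were 1 in place of 3 in wild type of the S111A S115A experiment without a filter, 0 in place of 1 in *H3.3* mutants with DESeq2 (edgeR 3 at an unadjusted p under 0.05), and 1 in place of 2 for both proteins with TMM over all libraries or only the groups compared. For the change of the *HIRA* difference from 1 to 1.5 h to 2.5 to 3 h, DESeq2 and TMM over all libraries gave 2 in place of 1. Leaving out single libraries gave 0 to 1 for *HIRA* mutants at 0.5 to 1 h, 1 to 3 for *H3.3* mutants at 0.5 to 1 h, 0 to 1 at 1 to 1.5 h, 1 to 2 for S111A S115A at 1 to 1.5 h, 2 to 4 and 1 to 3 between stages in wild type of the overexpression and S111A S115A experiments, and 1 to 2 for both proteins between stages and for the change of their difference.

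Uncalled values changed sign in mislocalized dPCIF1 mutants at 0.5 to 1 h for *opa* (−0.34) and *slp2* (−0.57) against the other wild types, and when single libraries were left out for *opa* (−0.16 to 0.24), *prd* (−0.032 to 0.24) and *slp2* (−0.19 to 0.59). In *HIRA* mutants at 0.5 to 1 h they did so for *odd* (0.25), *opa* (0.15), *run* (−0.39) and *slp1* (0.44) against the other wild types, for *h* when single libraries were left out (−0.35 to 0.15) and for *run* (−0.054) with library totals. At 1 to 1.5 h in *HIRA* mutants *eve* (1.45), *ftz* (1.19), *h* (0.17), *odd* (0.16), *opa* (0.53), *prd* (1.84) and *run* (0.68) changed sign against the other wild types, 3 of them called against the own one. In *H3.3* mutants at 1 to 1.5 h *eve* (−0.61), *odd* (−0.33), *opa* (−0.49) and *prd* (−0.27), and in S111A S115A mutants at 0.5 to 1 h *slp1* (0.88) and *slp2* (0.76), did so. The cause was not tested.

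Each group holds 2 libraries, and experiments were collected apart, so collection and experiment cannot be told apart in any comparison across experiments.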
